A study of Mus musculus with 14 samples.

Results

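Macrophage marker genes were followed in RNA from the dissected epicardium and subepicardium of fetal mouse hearts at E16.5. The genes were picked by symbol: Csf1r, Cd68, Adgre1, Cx3cr1, Mrc1, C1qa, C1qb, C1qc, Cd163 and Timd4. Of these 10 genes, 9 had a row among the 15894 genes of the expression table, and Timd4, a phosphatidylserine receptor of resident macrophages, had no row and is not described further.

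The study set the ventral side of the ventricles against the dorsal side, in hearts of both sexes. Each library was made from poly(A) RNA pooled from 2 hearts. There were 3 female ventral and 3 female dorsal libraries, numbered 1 to 3, with 4 male ventral libraries, numbered 4 to 7, and 3 male dorsal libraries, numbered 4 to 6. A further male library, numbered 7, is named dorsal by its title and source and ventral by its tissue field, so it entered no regional test and its values are given apart. All 14 libraries carry the genotype Tbx18Cre in the sample labels, a Cre allele at a gene of the epicardium, whereas the study speaks of wild-type hearts and gives a mixed background for its mice. The labels name no treatment. Sex and the number series coincide, so a difference between the sexes and a difference between preparations cannot be told apart. Reads assigned to the listed genes came to 13.9 to 25.2 M per library.

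Macrophages settle in the developing heart from the yolk sac and the fetal liver, and many of them lie in the subepicardial space beside the coronary vessels. They depend on signalling through the colony stimulating factor 1 receptor, take up dying cells, and make most of the complement component C1q of a tissue. C1q is built from A, B and C chains, each encoded by its own gene, and all 3 chains are needed for the assembled molecule. In RNA from a whole tissue layer, a lower level of a marker can come from fewer macrophages or from less of that RNA in each macrophage, and these cannot be told apart here.

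The markers fall into surface receptors (Csf1r, Adgre1, Cx3cr1, Mrc1, Cd163), an endosomal and lysosomal glycoprotein (Cd68) and secreted complement chains (C1qa, C1qb, C1qc). Csf1r, the receptor of the growth factors CSF1 and IL-34, lies on chromosome 18 (61100598 to 61132149, plus strand, GRCm38). Of the 60-base windows of its exons, 14.1% overlap exons of the antisense gene Hmgxb3, whose reads cannot be separated from those of Csf1r without strand. Cx3cr1, the fractalkine receptor, lies on chromosome 9 (119901616 to 120069879, minus strand) and shares 0.495% of its windows with other genes. The remaining markers shared none. Adgre1, an adhesion receptor that is the classical mouse macrophage antigen, lies on chromosome 17 (57358691 to 57483527, plus strand). Mrc1, the mannose receptor CD206, lies on chromosome 2 (14229392 to 14332057, plus strand), and Cd163, the scavenger receptor for haemoglobin bound to haptoglobin, on chromosome 6 (124304656 to 124330527, plus strand). Cd68 occupies a short stretch of chromosome 11 (69664213 to 69666153, minus strand). The C1q genes are neighbours on the minus strand of chromosome 4, with C1qb at 136880129 to 136886187, C1qc at 136889804 to 136893065 and C1qa at 136895917 to 136898803. All 9 are protein-coding genes.

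Divided by exon length, the level was highest for C1qb, with a mean of 86.5 normalized CPM per kilobase over the 14 libraries, and lowest for Cd163, with 0.841. C1qa followed C1qb with 34.1, and C1qc had 25.5 when all annotated exons were counted and 40.9 when only its longest transcript was, so the order of C1qa and C1qc depends on the transcript model. Cd68 stood at 16.2, Csf1r at 8.75, Mrc1 at 6.74, Adgre1 at 5.16 and Cx3cr1 at 4.37. The ranges over libraries of these receptors overlapped widely, from 1.40 to 11.2 for Mrc1 and from 1.58 to 6.86 for Cx3cr1, so neighbours in that order were not separated. Among the 4 groups of settled region, the mean level was lowest in female dorsal libraries for 8 of the 9 markers and highest in male ventral libraries for 8. The order from female dorsal over male dorsal and female ventral to male ventral held for 6 markers.

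Upstream sequences are shown for 3 markers that hold a PU.1-type core. Whether such cores have a part in the levels of the markers was not tested. PU.1, the product of Spi1, is an ETS-family transcription factor that macrophages require, and its sites carry the letters GAGGAA. RefSeq windows of 250 bases before the annotated start (GRCm38.p6) were given for 6 of the 9 listed markers and for Timd4. A match to GAGGAA on either strand was found in 4 of these windows, against 23.3% of 32851 windows of the same length over all genes. Each sequence runs 5′ to 3′ on the strand of its gene, and capitals mark GAGGAA or its reverse complement.
C1qb: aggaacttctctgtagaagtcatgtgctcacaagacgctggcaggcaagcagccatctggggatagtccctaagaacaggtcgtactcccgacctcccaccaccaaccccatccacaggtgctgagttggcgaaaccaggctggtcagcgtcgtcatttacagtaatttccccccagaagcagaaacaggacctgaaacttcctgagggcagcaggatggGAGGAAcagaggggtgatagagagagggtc
Mrc1: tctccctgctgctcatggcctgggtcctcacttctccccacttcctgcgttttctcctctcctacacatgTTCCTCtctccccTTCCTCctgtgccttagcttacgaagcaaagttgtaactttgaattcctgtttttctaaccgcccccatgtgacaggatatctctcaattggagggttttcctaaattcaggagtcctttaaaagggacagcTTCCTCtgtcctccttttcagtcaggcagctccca
Cd68: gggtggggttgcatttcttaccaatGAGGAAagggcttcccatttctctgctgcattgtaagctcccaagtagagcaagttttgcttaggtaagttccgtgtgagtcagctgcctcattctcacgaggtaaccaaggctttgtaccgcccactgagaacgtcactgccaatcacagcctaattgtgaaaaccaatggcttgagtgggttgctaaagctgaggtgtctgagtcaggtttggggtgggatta
The C1qb window is chr4:136886201-136886450 and the C1qc window chr4:136892915-136893164, both on the minus strand. The C1qc window reaches into the first exon that GENCODE gives the gene, so its sequence is not shown, and positions in it are counted from the RefSeq start. The match lies at position -30 from the start of C1qb and at -193 from that of C1qc, where it is part of the longer GAGGAAGT, found in 2.44% of all windows. Mrc1 (chr2:14229164-14229413, plus strand) has matches at -180, -167 and -35, and its last bases fall inside the first exon of the GENCODE gene. Cd68 (chr11:69666171-69666420, minus strand) has 1 at -225. No GAGGAA was found in the windows of Cx3cr1, Cd163 and Timd4, which says only that these letters are absent there. The Cx3cr1 window (chr9:120068297-120068546, minus strand) lies before the RefSeq start but inside the span that GENCODE gives the gene. TGCTGAC, a MAF-type core found on either strand in 3.81% of all windows, occurred in none of the 6 windows of listed markers and once in that of Timd4.

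In female hearts the macrophage markers were higher on the ventral side. By limma on log2(normalized CPM + 1), 6 of the 9 markers were called higher ventrally at an adjusted p under 0.05 and 0 were called higher dorsally, where 14.5% of the 14411 genes tested passed in the ventral and 13.3% in the dorsal direction. All 9 changes were above 0, as were 50.7% of those of all genes, with a median log2 change of 1.64 against 0.01 over all genes. The called markers were Csf1r, Cd68, Cx3cr1, Mrc1, C1qa and C1qb, and in these 6 every ventral library lay above every dorsal library, a separation in that direction shown by 23.2% of all genes. Set against the dorsal library of the same number, the ventral library was higher in 27 of 27 comparisons over the 9 markers and 3 numbers.

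Csf1r had normalized CPM of 39.7, 64.5 and 63.2 in the female ventral libraries and of 11.7, 13.2 and 17.3 in the female dorsal libraries. The groups did not overlap, and the lowest ventral library stood above the highest dorsal library by more than the spread of the dorsal libraries. The mean was 55.8 ± 13.9 ventrally and 14.1 ± 2.91 dorsally (SD, n = 3 each), a ratio of 3.97 and a log2 change of 1.90 ± 0.236 (SE; limma, adjusted p = 8.44e-04). The call held in all 16 alternative analyses of the female libraries. The reads behind these values were 761 to 1077 ventrally and 242 to 346 dorsally.

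The A and B chain genes of C1q were both higher ventrally in female hearts. C1qa stood at 31.8, 48.8 and 57.4 ventrally and at 8.52, 8.85 and 12.6 dorsally. C1qb, the most abundant marker, reached 78.9, 129 and 160.0 ventrally and 21.5, 23.1 and 44.7 dorsally. For both genes the ventral libraries were all above the dorsal ones, with female dorsal library 3 the highest of its group. The log2 change was 2.08 ± 0.258 for C1qa (limma, adjusted p = 8.52e-04) and 2.02 ± 0.310 for C1qb (limma, adjusted p = 0.00216), and both calls held in all 16 alternatives.

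The C chain gene did not follow the A and B chain genes to the same extent. C1qc stood at 23.6, 42.6 and 76.0 in female ventral libraries and at 22.9, 16.2 and 43.6 in female dorsal libraries. The groups overlapped, since female dorsal library 3 lay above 2 of the ventral libraries. Its log2 change was 0.72 ± 0.425 (limma, adjusted p = 0.23). With the library number as a block, which compares the ventral and dorsal libraries of one number, the change was 0.72 and passed the test (limma, adjusted p = 0.0441), which made 7 markers called, against 15.8% of all genes in that fit. With GC and length trends removed as well, its change was 0.53 and did not pass (limma, adjusted p = 0.127).

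Mrc1 and Cx3cr1 were also higher ventrally. Mrc1 stood at 35.8, 70.4 and 71.5 ventrally and at 16.7, 8.90 and 24.5 dorsally. Its log2 change was 1.80 ± 0.362 (limma, adjusted p = 0.00629), with ventral library 1 the nearest to the dorsal group. Cx3cr1 stood at 22.4, 18.3 and 27.5 ventrally and in a narrow range dorsally, at 7.14, 7.16 and 8.36. Its log2 change was 1.46 ± 0.237 (limma, adjusted p = 0.00269), and both calls held in all 16 alternatives.

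For Cd68 the ventral libraries were spread widely, though all of them lay above the dorsal ones. It stood at 11.5, 21.4 and 44.8 ventrally and at 5.01, 6.13 and 8.81 dorsally, a log2 change of 1.64 ± 0.429 (limma, adjusted p = 0.02). The call was lost in 4 of 16 alternatives, those without female ventral library 2 or 3 or without female dorsal library 1 or 2, and the adjusted p ran up to 0.0625. Female ventral library 3, the highest for Cd68, also stood apart in genes of neutrophil granules: S100a8 was at 127 there and at 1.18 to 21.7 in the other female libraries. Lyz2, a lysozyme of neutrophils and macrophages, was at 473 in that library and at 20.9 to 64.3 in the others. The part of these cells in the Cd68 value was not tested.

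Adgre1 and Cd163 did not pass the unpaired test in female hearts. Adgre1 ranged from 8.06 to 18.7 ventrally and from 5.06 to 14.2 dorsally, a log2 change of 0.57 ± 0.399 (limma, adjusted p = 0.311). Cd163, the marker with the fewest reads, ranged from 2.42 to 9 ventrally and from 0.716 to 5.02 dorsally, a log2 change of 0.94 ± 0.559 (limma, adjusted p = 0.235). Both groups of values overlapped, and female dorsal library 3 gave the highest dorsal value of each gene. The 3 female dorsal libraries held 15, 16 and 100 Cd163 reads. With the library number as a block and GC and length trends removed, both genes were called, Adgre1 at 0.81 (limma, adjusted p = 0.0478) and Cd163 at 1.03 (limma, adjusted p = 0.0448), while the block alone gave adjusted p-values of 0.131 and 0.0547.

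**Figure D1:**
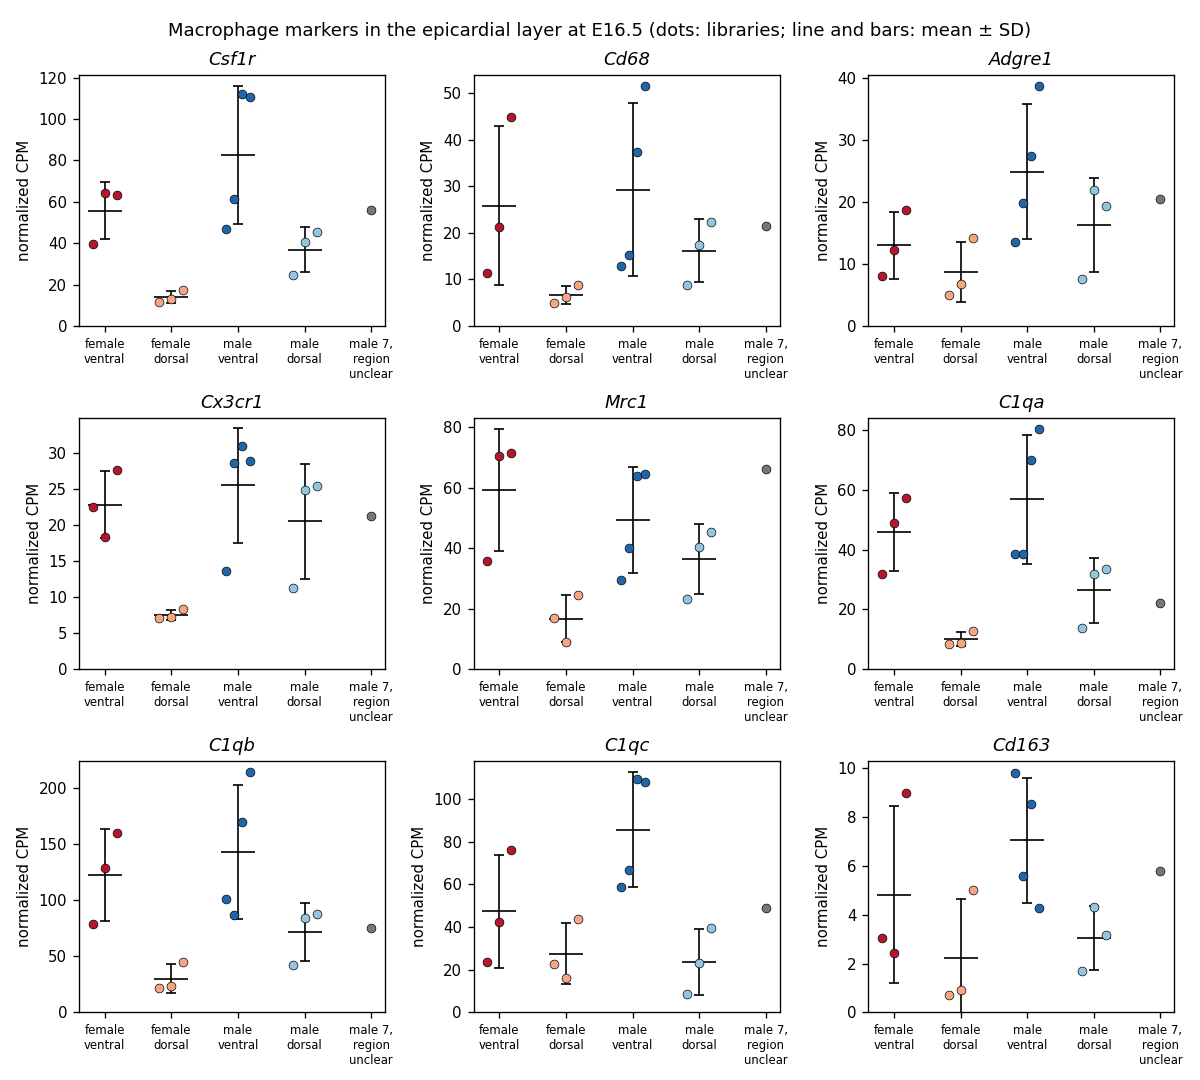
Normalized CPM (vertical axis, linear, from 0) of the 9 macrophage markers in each library, by sex and region (horizontal axis), with the mean and SD of each group; the lower bar of Cd163 in female dorsal libraries is cut at 0. Female ventral dots lie above female dorsal dots for Csf1r, Cd68, Cx3cr1, Mrc1, C1qa and C1qb, and male ventral and male dorsal dots are apart only for Csf1r, C1qa and C1qc.

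In male hearts the same markers were higher ventrally by their means, but none of them passed the test. Of the 9 markers 0 were called, as were 0 of the 14917 genes tested, a background of 0%. At an unadjusted p under 0.05, 5 of 9 markers (Csf1r, C1qa, C1qb, C1qc and Cd163) were higher ventrally, against 6.84% of all genes, and edgeR on the recovered reads called 0 of the 9 as well. All 9 changes were above 0, as were 52.9% over all genes, with a median log2 change of 0.97 against 0.03 over all genes. Ventral libraries lay above all dorsal libraries for 3 markers (Csf1r, C1qa and C1qc), as they did for 6.18% of all genes. Within numbers 4 to 6 the ventral library was higher in 24 of 27 comparisons.

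Male Csf1r stood at 47.1, 61.2, 112 and 110.4 ventrally and at 24.6, 40.7 and 45.4 dorsally. The ventral values fell into a lower pair (libraries 4 and 5) and a higher pair (6 and 7), and even the lower pair was above the dorsal libraries. The log2 change was 1.09 ± 0.327 (limma, adjusted p = 0.285). With the library number as a block, where ventral library 7 has no partner and adds nothing, the change was 0.92 and passed the test (limma, adjusted p = 0.0263). In that fit 2 of the 9 markers, Csf1r and C1qc, were called higher ventrally, against 0.416% of all genes.

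C1qc was the marker with the largest regional change in male hearts. It stood at 58.7, 66.7, 109.7 and 108 ventrally and at 8.37, 22.9 and 39.7 dorsally. The groups did not overlap, and the ratio of the means, 85.8 ± 26.9 (n = 4) over 23.7 ± 15.7 (n = 3), was 3.63. Its log2 change was 2.0 ± 0.434 (limma, adjusted p = 0.264), and with the block it was 1.87 (limma, adjusted p = 0.00225). C1qa stood at 38.6, 38.5, 70.2 and 80.5 ventrally and at 13.8, 31.7 and 33.5 dorsally, a log2 change of 1.10 ± 0.356 (limma, adjusted p = 0.289). C1qb stood at 101, 86.6, 169 and 214 ventrally and at 41.8, 84.2 and 88.1 dorsally, where male dorsal library 6 lay above ventral library 5, a log2 change of 0.97 ± 0.345 (limma, adjusted p = 0.303).

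The remaining markers overlapped between the sides of the male heart. Mrc1 ranged from 29.3 to 64.5 ventrally and from 23.3 to 45.4 dorsally (log2 change 0.41 ± 0.314). Cx3cr1 ranged from 13.5 to 30.9 and from 11.2 to 25.3 (log2 change 0.32 ± 0.353), and without male dorsal library 4, the lowest of its group, the change was -0.04. Cd68, Adgre1 and Cd163 had log2 changes of 0.69 ± 0.480, 0.61 ± 0.410 and 0.99 ± 0.373. Male dorsal library 4 was the lowest dorsal library for all 9 markers.

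**Figure D2:**
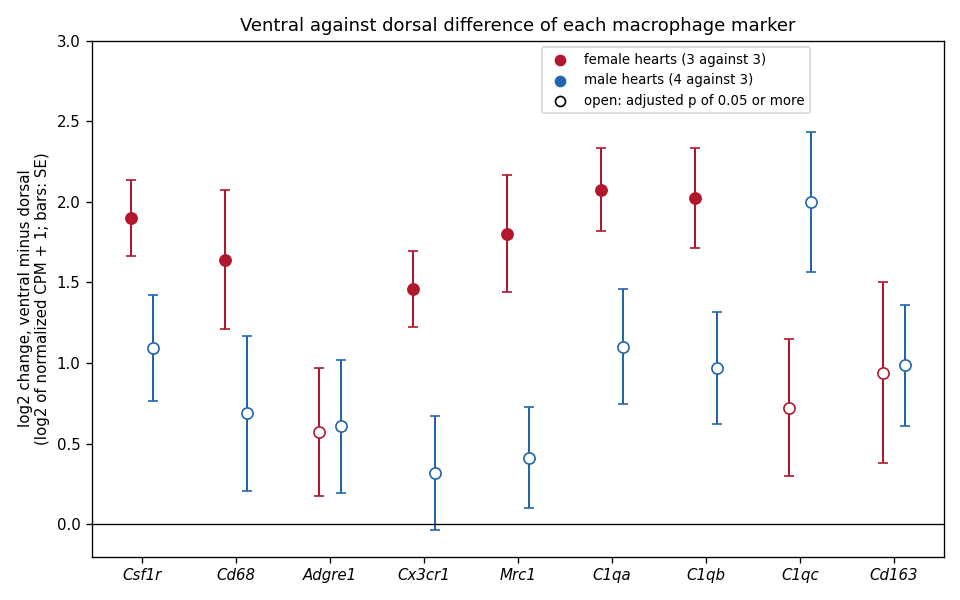
Log2 change between ventral and dorsal libraries (vertical axis, log2 of normalized CPM + 1; points with SE bars) of each marker (horizontal axis), in female hearts in red and in male hearts in blue, filled where the adjusted p was under 0.05. All 18 points lie above 0, the 6 filled ones are female, and C1qc has the highest male point at 2.0.

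Over both sexes, with sex as a covariate and 13 libraries of settled region, 7 of 9 markers were called higher ventrally, against 9.8% of 15772 genes. These were Csf1r, Cd68, Cx3cr1, Mrc1, C1qa, C1qb and C1qc. The log2 change was 1.56 ± 0.269 for C1qa (limma, adjusted p = 0.00678), 1.47 ± 0.242 for Csf1r (limma, adjusted p = 0.00593), 1.46 ± 0.290 for C1qb (limma, adjusted p = 0.00758) and 1.40 ± 0.374 for C1qc (limma, adjusted p = 0.0203). These 4 calls held in all 25 alternatives. Mrc1 (1.06 ± 0.314), Cx3cr1 (0.85 ± 0.267) and Cd68 (1.13 ± 0.372) lost their calls in 7, 11 and 12 of 25 alternatives, with adjusted p-values up to 0.0756, 0.0889 and 0.103. Without female ventral library 2 or 3, female dorsal library 1 or 2, male ventral library 6 or male dorsal library 4, 4 markers were left, since all 3 calls were then lost. Cd68 and Cx3cr1 were also lost without female dorsal library 3 or male ventral library 7, and Cx3cr1 without female ventral library 1. Adgre1 (0.59 ± 0.307) and Cd163 (0.96 ± 0.346) were not called. With the block Cd163 passed too (limma, adjusted p = 0.0288), and 8 markers were called, against 7.8% of all genes.

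The regional change of 6 markers was smaller in male than in female hearts, though none differed between the sexes in the test of that difference. Of the 9 markers 0 were called by limma or by edgeR, where 2.73% of 15772 genes were called by limma, and 2 (Cx3cr1 and Mrc1) had an unadjusted p under 0.05, as did 15.4% of all genes. The male change minus the female change was -1.39 ± 0.532 on the log2 scale for Mrc1 (limma, adjusted p = 0.214) and -1.14 ± 0.458 for Cx3cr1 (limma, adjusted p = 0.235). C1qc had the opposite sign, 1.28 ± 0.693 (limma, adjusted p = 0.406). Adgre1 and Cd163 were near 0, at 0.03 and 0.04, with a sign that turned between alternatives. With the library number as a block 4 markers were called, all with a smaller change in males, against 2.29% of all genes: Mrc1 at -1.54 (limma, adjusted p = 0.0329), C1qb at -1.28 (limma, adjusted p = 0.0238), Cx3cr1 at -1.22 (limma, adjusted p = 0.0358) and Csf1r at -0.98 (limma, adjusted p = 0.0489).

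Male hearts had higher fitted levels than female hearts for all 9 markers, as for 53.4% of all genes, and 1 marker was called. Csf1r was higher in males by 0.87 ± 0.242 on the log2 scale (limma, adjusted p = 0.03), where 4.4% of 15772 genes were called higher in males. Its call was lost in 11 of 25 alternatives, 8 of which left out a single library: female ventral 1, any female dorsal library, male ventral 6 or 7, or male dorsal 5 or 6. The others were eBayes without trend, all 14 libraries with sex alone, and libraries of one number averaged. The last averages the dorsal and ventral libraries of a number as pairs (log2 change 1.10, limma, adjusted p = 0.103). Number 7 entered it by its ventral library alone, and region was not a term of that fit, so it was not balanced by region. The adjusted p of Csf1r ran up to 0.162. The other markers had changes from 0.34 for C1qc to 0.85 for Adgre1, and the median was 0.64 against 0.03 over all genes. Csf1, which encodes a ligand of the receptor, was higher in males in the unaveraged fit, by 1.21 (limma, adjusted p = 0.0328). That fit counts the libraries of one number as independent. With averages by number 280 genes were called higher in males, against 694 without, and Csf1 was not examined there.

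The library of unclear region fell inside the range of the settled male libraries for 8 of the 9 markers. Csf1r was at 56.2, Cd68 at 21.5, Adgre1 at 20.5, Cx3cr1 at 21.3 and Cd163 at 5.81. C1qa at 22.0 and C1qb at 75.5 lay within the male dorsal range, whereas C1qc at 49.2 lay between the dorsal and the ventral libraries and Mrc1 at 66.2 just above both male groups. Taken as dorsal, this library left 5 markers called over both sexes, and taken as ventral, 7.

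The relative levels of the C1q chain genes were compared after the C1qc values had been seen, so they are a description. C1qb over C1qa stayed between 2.25 and 3.55 in the 14 libraries. C1qc over C1qa was 0.742, 0.873 and 1.32 in female ventral libraries and 2.69, 1.83 and 3.46 in female dorsal libraries. In male hearts the order was turned, with 1.52, 1.74, 1.56 and 1.34 ventrally and 0.605, 0.723 and 1.19 dorsally. The ratio was thus higher dorsally in females and higher ventrally in males, with no overlap within either sex. It was 2.24 in the library of unclear region.

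**Figure D3:**
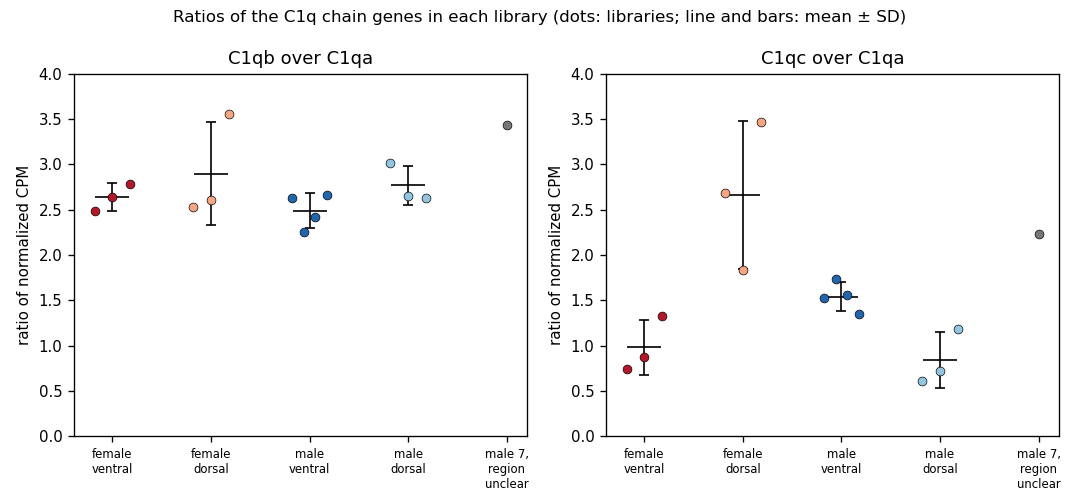
Ratio of normalized CPM (vertical axis, linear) of C1qb over C1qa (left) and C1qc over C1qa (right) in each library, by sex and region (horizontal axis), with the mean and SD of each group. C1qb over C1qa lies between 2.25 and 3.55 throughout, while C1qc over C1qa runs from 0.605 in a male dorsal library to 3.46 in a female dorsal one.

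The markers also moved together from library to library. Over the 14 libraries the Pearson correlation of log2 levels between pairs of markers ran from 0.617 to 0.985 with a median of 0.806 (36 pairs), and after the group means were removed it ran from 0.248 to 0.964 with a median of 0.839 (13 libraries). These are descriptions, since the libraries share their groups and each library contributes a value to every marker. Over the 14 libraries Cd163 (mean correlation 0.691) and C1qc (0.737) had the lowest mean correlation with the other markers, and after the group means were removed Cd163 (0.411) and Cx3cr1 (0.642) had. Summed over the 9 markers, the level was lowest in female dorsal library 2 (91.2) and highest in male ventral library 7 (701). Female ventral library 3, male ventral library 6 and male ventral library 7 formed the upper end, whereas female dorsal libraries 1, 2 and 3 and male dorsal library 4 formed the lower end.

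**Figure D4:**
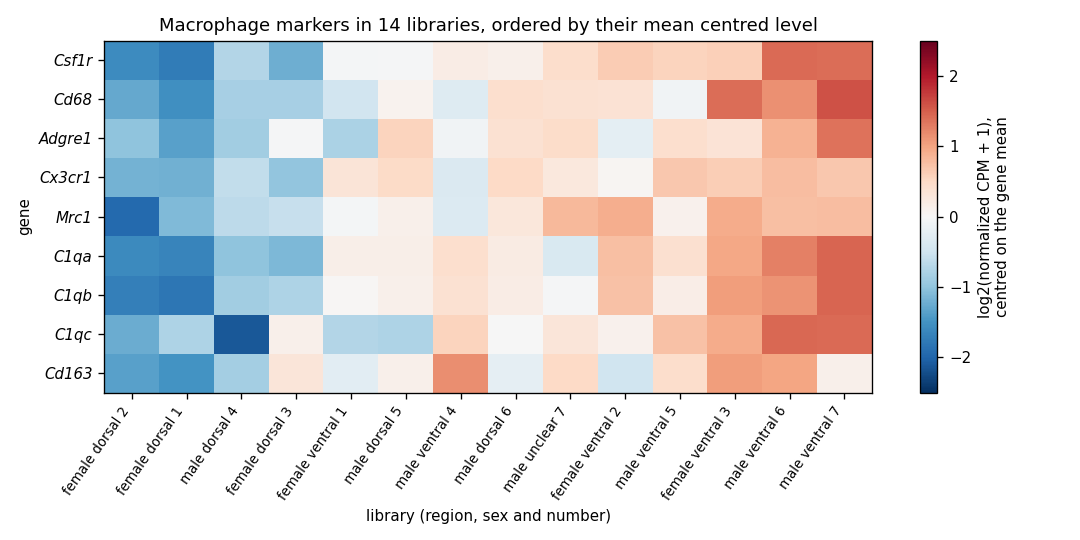
Log2(normalized CPM + 1) of each marker (rows), centred on its mean over 14 libraries (colour scale), with the libraries (columns) ordered by the mean of the 9 markers. The 4 leftmost columns are female dorsal libraries 2, 1 and 3 and male dorsal library 4, and the 2 rightmost are male ventral libraries 6 and 7.

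Other genes of macrophages were examined by list. Of 18 further receptors and adaptors tested in female hearts, 11 were higher ventrally by the test and 0 dorsally, with a median log2 change of 1.51, where 14.5% and 13.3% of all genes passed in these directions. Tyrobp, the signalling adaptor of several myeloid receptors, stood at 37.3 ± 14.3 ventrally and 7.71 ± 6.09 dorsally (log2 change 2.29, limma, adjusted p = 0.00589). Trem2, a lipid-sensing receptor that signals through it, stood at 13.7 ± 9.46 and 1.74 ± 0.335 (log2 change 2.24, limma, adjusted p = 0.00576). The Fc receptor genes Fcer1g, Fcgr1, Fcgr2b and Fcgr3 were called as well, as were Aif1, Clec4n, Siglec1, C3ar1 and Hpgds. Itgam, Mertk, Msr1, C5ar1, Cd86, Pld4 and Ms4a7 were above 0 and not called. Over both sexes 10 of the 18 were called higher ventrally, against 9.8% of all genes, and in male hearts the median change was 0.82 with no call.

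Of the transcription factors of the lineage, 2 of 11 were called in female hearts, both higher ventrally, with a median log2 change of 0.40. That share is near the 14.5% of all genes called higher ventrally in the same fit. Maf rose by 2.47 (limma, adjusted p = 0.0046) and Irf8 by 0.81 (limma, adjusted p = 0.0195). Spi1, which encodes PU.1, was at 3.88 ± 1.14 ventrally and 2.60 ± 0.317 dorsally in female hearts and at 10.1 ± 1.53 and 1.05 ± 0.766 in male hearts. Its regional change was larger in males by 2.07 (limma, adjusted p = 0.018). Over both sexes Spi1, Irf8 and Maf were called higher ventrally.

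Of the growth and recruitment factors 3 of 8 were called higher ventrally in female hearts, with a median log2 change of 1.13, where 14.5% of all genes passed in that direction. Csf1 stood at 26 ± 14.7 ventrally and 9.19 ± 2.13 dorsally (log2 change 1.3, limma, adjusted p = 0.023), and the chemokine genes Ccl12 and Ccl24 were called with it. Il34, the other ligand of the receptor, had a log2 change of 1.45 that missed the threshold (limma, adjusted p = 0.0564). Cx3cl1, the ligand of Cx3cr1, stood at 3.62 ± 1.10 ventrally and 6.14 ± 2.47 dorsally (limma, adjusted p = 0.258).

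Among genes that tell macrophage subsets apart, 5 of 11 passed in female hearts and 6 of 11 over both sexes, all higher ventrally, against 14.5% and 9.8% of all genes. Folr2, of resident perivascular macrophages, Trem2, Tmem119 and the antigen presentation genes H2-Aa and Cd74 were called in females. Tmem119, with the highest normalized CPM of the list over the mean of all libraries, stood at 143 ± 44.9 ventrally and 39.6 ± 15.6 dorsally. Which cells of the layer gave the Tmem119 RNA was not tested. P2ry12, another gene of the list, stood at 2.49 ± 1.06 and 1.22 ± 0.512 and was not called (limma, adjusted p = 0.231). Ccr2, of monocyte-derived cells, stood at 3.71 ± 2.55 and 2.70 ± 2.96 (limma, adjusted p = 0.547). F13a1 was called higher in males, by 1.26 (limma, adjusted p = 0.0136), in the fit that counts libraries of one number as independent.

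Complement genes beside C1q were higher ventrally in 5 of 8 tests in female hearts, against 14.5% of all genes, with a median log2 change of 1.85. C3, the central component, stood at 52.6 ± 26.3 ventrally and 4.57 ± 3.5 dorsally (log2 change 3.33, limma, adjusted p = 0.00118). C2 rose by 3.08, C1ra by 1.85 and C1s1 by 1.84, and Serping1, which encodes the inhibitor of the C1 proteases, by 1.97. In males the change of C3 was 0.31, and the difference between the sexes, -3.02, was called (limma, adjusted p = 0.0218). Cfb and Cfp were not called in female hearts.

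Lysosomal genes of phagocytes, which other cells of the layer also express, seldom passed the test. In female hearts Ctsc, a dipeptidyl peptidase gene, was called higher dorsally (log2 change -1.06), and the median log2 change over the 10 genes tested was 0.47. Ctsb, the gene of the list with the highest normalized CPM, stood at 678 ± 189 ventrally and 457 ± 38.5 dorsally (limma, adjusted p = 0.0769). Of 9 genes for bridging molecules of dead-cell uptake and for haem handling, Axl and Hmox1 were called higher ventrally and Pros1 and Cd36 higher dorsally. Of all genes 14.5% and 13.3% passed in these directions in female hearts.

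Genes of other leukocytes were for the most part not called in female hearts, though some of them were abundant. Pan-leukocyte genes followed the markers in part. Laptm5, Coro1a and Cyth4 were called higher ventrally in female hearts among 8 tested, against 14.5% of all genes. Ptprc, which encodes CD45, had a log2 change of 0.54 (limma, adjusted p = 0.44). Of the T and NK cell list 5 of 7 genes had no row, Cd3e among them, and its sum stayed between 0.653 and 6.85. The B cell list was represented by Cd79b alone. Mast cell genes were abundant, with summed levels of 345.7 to 614 in female ventral and 39.4 to 454 in female dorsal libraries. Of 4 mast cell genes tested in female hearts 1, Cma1, was called higher ventrally, against 14.5% of all genes. Of 6 platelet genes only Pf4 was called (log2 change 2.15), a share near the 14.5% of all genes. Pf4 is a chemokine gene that macrophages also express.

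Lists for other cells of the dissected layer were examined in the same way. Epicardial genes were called higher ventrally in 9 of 10 cases in female hearts, with a median log2 change of 2.27, and their summed level was 1780 to 2861 ventrally and 345.0 to 658 dorsally. Fibroblast genes were called in 5 of 8 cases, with sums of 11676 to 22180 and 2972 to 4689. The list for lymphatic endothelium was called in 4 of 7 cases, namely Lyve1, Stab1, Pdpn and Flt4, of which Lyve1 and Stab1 are also expressed by macrophages, and Prox1 was not (log2 change 0.18). Blood endothelial genes had a median log2 change of 0.06. Smooth muscle genes were mostly in the dorsal direction, with Myh11 (log2 change -1.68, limma, adjusted p = 0.0258), Cnn1 (-1.28, adjusted p = 0.0251) and Rgs5 (-1.05, adjusted p = 0.00847) called higher dorsally and Pdgfrb (0.59, adjusted p = 0.0357) higher ventrally among 6. In male hearts the epicardial sums, 2114 to 6198 ventrally and 1655 to 4401 dorsally, overlapped. The sum over ventricular cardiomyocyte genes was 23701 to 34654 in female ventral and 32278 to 45692 in female dorsal libraries. Of the 10 genes of that list 2 were called in female hearts, both higher ventrally, a share near the 14.5% of all genes. The 2 called genes were Ttn (log2 change 1.40, limma, adjusted p = 0.00245) and Ryr2 (0.65, limma, adjusted p = 0.0256). The part that the amount of epicardial and subepicardial tissue in each library has in the marker values was not tested.

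By rank of the correlation with the mean of the markers over the 14 libraries, among 15861 genes, the nearest included Tyrobp (0.975), Slit2 (0.972), Cryl1 (0.969), Il18 (0.969), Ltc4s (0.968), Gm48942 (0.962), Pf4 (0.961), Sfxn1 (0.959) and Cdc42ep5 (0.957). Tyrobp, Il18, Ltc4s and Pf4 are genes that macrophages are known to express, and Slit2 is known from stromal and mesothelial cells. These values describe likeness over libraries that also differ in region and sex.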

How the data were processed

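Libraries were prepared from 40 ng of total RNA of the E16.5 epicardial and subepicardial layer, each pooled from 2 hearts out of several litters, and sequenced as single reads of 60 bases with a kit that does not mark strand. In the study's methods the authors removed adapters (Cutadapt 1.7.1), assigned reads to GRCm38 genes of release 91 with RSEM (version 1.2.20, or 1.3.1 per the processing notes), scaled the libraries with limma and dropped genes that did not reach 1 CPM in 3 samples. Their deposited signal values are normalized CPM. Read numbers were worked back from them, and 100% of the values came out whole (tolerance 0.02 reads, offset 0.5). GENCODE M21 (GRCm38), which held 15888 of the 15894 identifiers, gave positions and lengths, and RefSeq (GRCm38.p6) the upstream windows.

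Testing used limma 3.58.1 (R 4.3.3, eBayes with trend) on log2(normalized CPM + 1), which understates changes at low levels. A gene entered a fit when 3 of its libraries reached 1, p-values were adjusted over all genes by Benjamini-Hochberg, and calls were made under 0.05. They measure the spread between pools. Other settings were another pseudocount (0.1), filters (none, or a mean of 10), scalings (ratio medians, quantiles) and variance models (no trend, or edgeR 4.0.16 on the recovered reads), GC and length correction by splines (5 degrees of freedom), blocking on the library number, both readings of the unclear library, single libraries left out, and for sex alone a fit of 14 libraries or averages by number. The scripts were tested on simulated data. Neither labels nor methods explain the numbers. Over 15772 genes the deviations from the group mean of the dorsal and ventral library of a number were correlated (r = 0.187, 0.169 and 0.27 in females, 0.427, 0.175 and 0.351 in males). Libraries of different numbers were not compared in this way. Numbers were taken as pairs in the blocked fits, which is an assumption.

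The markers, gene lists and tests were chosen with earlier results of these data known. Named besides the markers are list members that passed a test, the highest gene of a list and the 10 genes nearest to the mean of the markers, and a few genes that this rule would name are not reported here. List members named although they did not pass (Itgam, Il34, Cx3cl1, Ccr2, Ptprc, Prox1 and the like) were chosen after their values were seen.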

Additional observations from a re-analysis of the deposited data

Results flagged for a closer look

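Cx3cr1 in the 4 male ventral libraries was flagged because the lowest library stood far from the others. Library 4 was at 13.5 normalized CPM, whereas libraries 5 to 7 were between 28.5 and 30.9, and the gap exceeded Dixon's critical value at 95%. Of the 9 markers 1 was flagged in this group, the only group with at least 4 libraries, and chance alone flags about 1 in 20. The same library gave the highest Cd163 value of the male ventral group, 9.79, and its summed level of the 9 markers, 325, was the lowest of that group.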

How the results depend on the processing

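The count of called markers in female hearts stayed between 5 and 8 in all alternatives run. Over both sexes it was 4 to 7 when single libraries were left out. In male hearts 0 markers were called, 2 with the replicate block and 1 with the block after removal of the GC and length trends. For the difference between the sexes in regional change, the block gave 4 called markers and the block with that removal 3, where the unblocked fit gave 0. The count for sex, 1, was 0 with eBayes without trend, with all 14 libraries and sex alone and with libraries of one number averaged, and 0 to 2 when single libraries were left out. The cause of these moves was not tested. The change of Cx3cr1 in male hearts ran from -0.044 (without male dorsal library 4) to 0.59. The difference between the sexes for Adgre1 was -0.12 after removal of GC and length trends, -0.21 with the replicate block, -0.35 with both, -0.0751 with the unclear library taken as dorsal, and -0.41 to 0.32 when single libraries were left out. That for Cd163 was -0.17 with a pseudocount of 0.1, -0.16 with the unclear library taken as dorsal, and -0.53 to 0.52 when single libraries were left out. The lowest read number behind a marker value was 15, for Cd163.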

Other observations

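Mrc1 over Csf1r, a ratio chosen after the values had been seen, was 0.569 to 0.656 in the 4 male ventral libraries and 0.948 to 0.999 in the 3 male dorsal libraries, with no overlap. In female hearts it was 0.90, 1.09 and 1.13 ventrally and 1.44, 0.674 and 1.42 dorsally, and the groups overlapped.

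After the group means were removed, the genes with the highest correlation with the mean of the markers over 13 libraries were Pdcd4 (0.986), Itgbl1 (0.980), Cebpb (0.977), Mgat3 (0.973) and Hsd11b1 (0.972), while over all 14 libraries the values for Pdcd4 and Cebpb, a transcription factor gene of myeloid cells, were 0.440 and -0.04.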
